A study of Mus musculus with 11 samples.

Results

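Immediate early genes are the genes that cells switch on first when a growth factor, cytokine, stress or mechanical signal reaches them, without new protein having to be made. The 35 members described here were chosen by name, with earlier results of these data known. Their shares beside those of all genes are thus descriptions only. All 35 had a row in both deposited tables, among 18712 genes that the tables share. They comprise 7 AP-1 subunits, 2 other bZIP factors, 3 EGR factors, 4 Kruppel-like factors, 3 orphan nuclear receptors, 3 other nuclear factors, 3 IER proteins, 3 MAP kinase phosphatases, 4 regulators of mRNA decay, growth arrest and stress, and a group of 3 with a GTPase and matricellular proteins. All 35 passed the filter on low values in every comparison.

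The 11 RNA-seq libraries were made from primary stromal cells (mesenchymal stromal cells, MSC) that came from C57/BL6 bone marrow and received no treatment. The groups were wild type (WT, 4 libraries), ANXA2 KO (3 libraries) and ANXA5 KO (4 libraries). The knockouts targeted annexin A2 or annexin A5, proteins that bind membranes when calcium is present. The question posed by the design is how depletion of either annexin alters gene expression in these cells. The sources used here do not give the ages of the mice, the way the cells were grown or whether each library came from its own animal, so p-values measure only the spread between these libraries, which may be technical.

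Immediate early genes are induced through ERK, p38, calcium and cyclic AMP signals that reach factors already present on their promoters, chiefly SRF with its ELK partners at CArG boxes and CREB at cyclic AMP response elements (CRE). Their transcripts are short-lived, and many of their products, such as the MAP kinase phosphatases and ZFP36, act to end the response. In cells taken from tissue, these genes are also known to respond to dissociation and handling.

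Promoters of some members with larger and some with smaller differences between the knockouts are shown first, since shared elements are a known feature of these genes. They are examples and do not follow the order of the differences. No member passed the main test of that comparison, described below. RefSeq promoter sequences of assembly GRCm38.p6, which is not the build GRCm39 that the submitters' processing notes name, were available for 28 of the 35 members, in 37 windows. Fosl1, Egr1, Egr3, Klf10, Myc, Ier2 and Ccn2 were not matched. The windows run from 250 bases before to 50 bases after each start and were searched on both strands. The first 250 bases are printed 5′ to 3′ on the gene's strand for Nr4a1 at chr15:101266596-101266845 (plus strand), Zfp36 at chr7:28379229-28379478 (minus strand), Klf4 at chr4:55532476-55532725 (minus strand), Fosb at chr7:19310046-19310295 (minus strand), Srf at chr17:46556163-46556412 (minus strand) and Dusp5 at chr19:53528895-53529144 (plus strand). Capitals mark the CRE half-site, the CArG box and the EGR site, on either strand.

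Nr4a1: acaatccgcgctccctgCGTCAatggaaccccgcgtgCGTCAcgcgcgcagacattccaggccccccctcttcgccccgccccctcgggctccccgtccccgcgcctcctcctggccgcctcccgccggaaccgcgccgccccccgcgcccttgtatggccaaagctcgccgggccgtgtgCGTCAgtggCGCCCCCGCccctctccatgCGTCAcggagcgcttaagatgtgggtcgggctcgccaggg
Zfp36: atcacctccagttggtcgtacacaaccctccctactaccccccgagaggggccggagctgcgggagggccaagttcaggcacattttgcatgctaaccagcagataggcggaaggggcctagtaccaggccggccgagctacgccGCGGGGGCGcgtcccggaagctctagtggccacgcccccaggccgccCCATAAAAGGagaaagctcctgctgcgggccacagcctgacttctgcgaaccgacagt
Klf4: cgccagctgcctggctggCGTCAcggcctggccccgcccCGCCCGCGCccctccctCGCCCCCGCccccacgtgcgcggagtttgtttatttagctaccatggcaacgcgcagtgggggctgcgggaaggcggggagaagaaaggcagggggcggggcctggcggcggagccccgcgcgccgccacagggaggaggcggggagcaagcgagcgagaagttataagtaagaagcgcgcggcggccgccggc
Fosb: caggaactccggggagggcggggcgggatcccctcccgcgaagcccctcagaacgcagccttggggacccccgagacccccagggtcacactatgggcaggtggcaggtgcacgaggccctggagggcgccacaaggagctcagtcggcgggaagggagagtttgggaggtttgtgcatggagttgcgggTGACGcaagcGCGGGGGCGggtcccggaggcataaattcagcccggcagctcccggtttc
Srf: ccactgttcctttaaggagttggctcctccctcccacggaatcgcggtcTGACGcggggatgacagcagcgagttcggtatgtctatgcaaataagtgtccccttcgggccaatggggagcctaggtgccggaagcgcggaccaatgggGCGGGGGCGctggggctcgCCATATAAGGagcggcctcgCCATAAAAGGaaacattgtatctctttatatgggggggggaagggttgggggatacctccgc
Dusp5: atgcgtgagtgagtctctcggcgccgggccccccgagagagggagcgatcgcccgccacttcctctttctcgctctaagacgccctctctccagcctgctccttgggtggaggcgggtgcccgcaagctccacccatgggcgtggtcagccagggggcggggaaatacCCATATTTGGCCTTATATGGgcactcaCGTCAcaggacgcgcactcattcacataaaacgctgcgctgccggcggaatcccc

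The CRE half-site, TGACG, lay in 64.9% of the members' windows and in 20.8% of all 32851 windows. The full CRE, TGACGTCA, which contains the half-site on both strands, lay in 10.8% against 1.79%, in Maff, Dusp1, Btg2 and Ppp1r15a. A CArG box lay in 18.9% against 1.63%, in Egr2, Srf, Dusp5 and Zfp36, and the windows of Srf and Dusp5 each hold 2. Windows of 1 gene can overlap, so 1 box of Egr2 is counted more than once in the 18.9%. By gene, the CArG box lay in 4 of 28 members and the half-site in 18. The EGR site, GCGNGGGCG, lay in 29.7% against 5.55%, in 11 members, among them Fosb, Klf4, Nr4a1 and Zfp36. The AP-1 site, TGANTCA, lay in 2.7% against 7.81%, in Csrnp1 alone. A TATA box, TATAAA, lay in 18.9% against 13.6%. These are matches of letters in a fixed window, and binding was not measured.

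The libraries held 23304225 to 35654634 counted reads, and a value below is a read count divided by the size factor of its library. The targeted transcripts were lower in the matching libraries: Anxa2 was 8542 in ANXA2 KO and 29822 in the wild type, a log2 fold change of -1.82 ± 0.15 (SE, limma, adjusted p = 0.00191), and Anxa5 was 2359 in ANXA5 KO and 25529 in the wild type, -3.43 ± 0.08 (SE, adjusted p = 1.91e-08). Anxa2 reads thus remained in ANXA2 KO, at 10427, 8041 and 7159 in libraries 1, 3 and 4, and protein was not measured here. Stromal markers such as Col1a1 and Col1a2 were abundant in every library, but so were neutrophil markers, whose 8 genes summed to between 269108 and 652184 in ANXA2 KO and between 289714 and 516379 in the wild type. Reads of Xist, the RNA that coats an inactive X chromosome, were plentiful in wild type libraries 1 and 2 (1829 and 1997) and all but absent in libraries 3 and 4 (1.16 and 0.959). They were 652, 226 and 203 in the ANXA2 KO libraries, and 783, 2.07, 1676 and 528 in the ANXA5 KO libraries. The ANXA2 KO libraries are called 1, 3 and 4, as their columns are.

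Together the 35 genes took 4.56%, 3.40% and 3.21% of the counted reads in ANXA2 KO libraries 1, 3 and 4. Their share in wild type libraries 1 to 4 was 3.12%, 2.82%, 3.87% and 2.62%, and in ANXA5 KO libraries 1 to 4 it was 2.45%, 2.92%, 2.103% and 2.26%. Every ANXA2 KO library thus lay above every ANXA5 KO library, and the wild type libraries overlapped both. Wild type library 3 was the one wild type library inside the ANXA2 KO range. In bulk samples such as these, fewer cells of a type and less RNA per cell cannot be told apart.

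**Figure D1:**
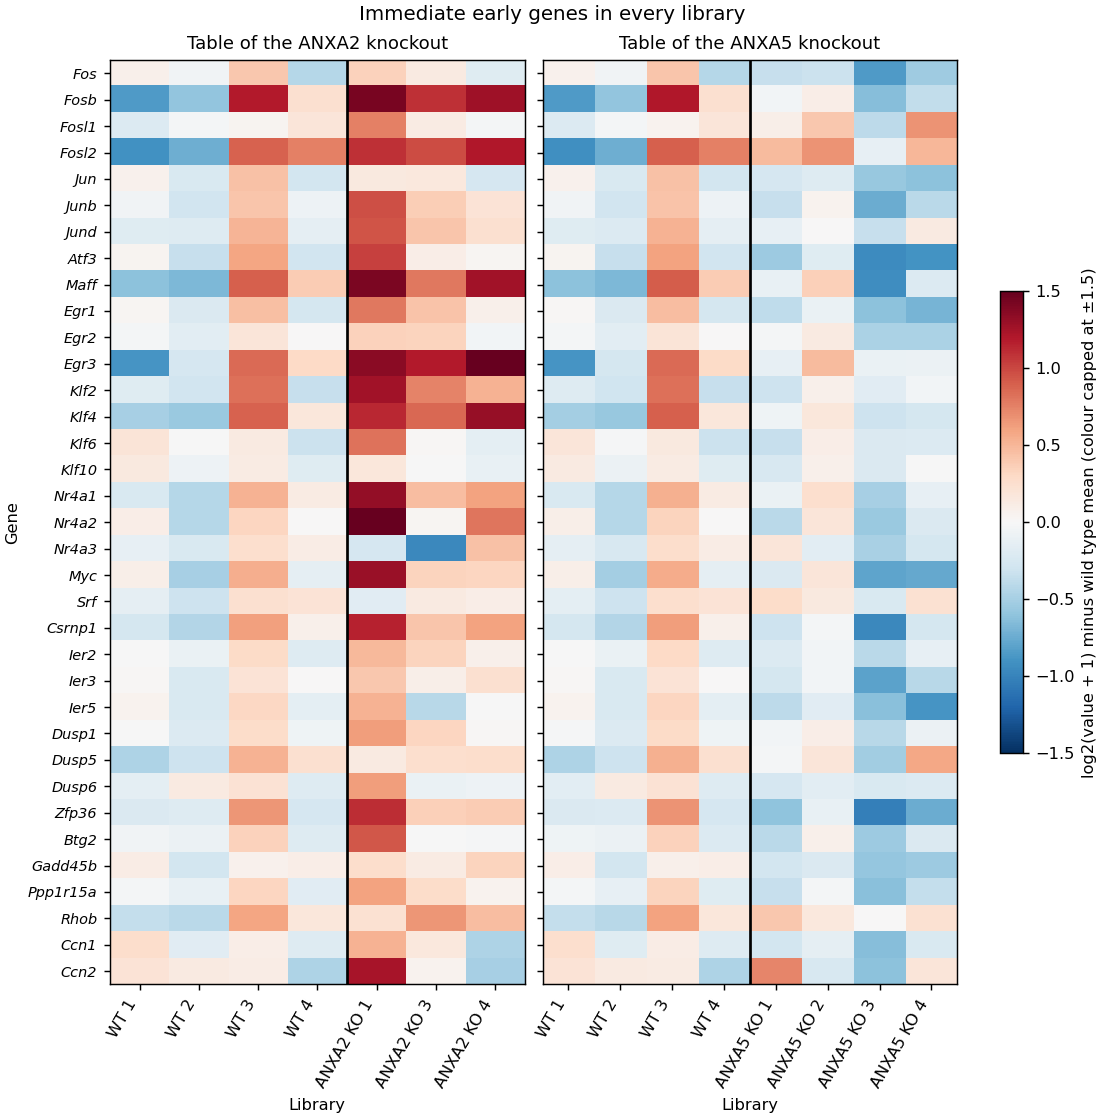
Each row is an immediate early gene and each column a library, with the 7 libraries of the ANXA2 table on the left and the 8 of the ANXA5 table on the right; colour is log2(value + 1) minus the mean of the 4 wild type (WT) libraries, capped at ±1.5. The columns of wild type library 3 (median 0.402 in the ANXA2 table) and ANXA2 KO library 1 (median 0.794) are the reddest, and that of ANXA5 KO library 3 (median -0.54) is the bluest.

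In ANXA2 KO, 34 of the 35 immediate early genes lay above the wild type by their mean log2 value, but none passed the test at an adjusted p under 0.05. The median log2 fold change of the members was 0.309, against 0.0232 over all 16123 genes tested, of which 54.1% lay above 0. The largest differences were those of Egr3, Fosb, Maff, Klf4 and Fosl2, all higher by at least 1 on the log2 scale, as were 0.98% of all genes. On that scale Nr4a3 was the one member below the wild type, at -0.26 ± 0.29 (SE), and the plain means of Jun were nearly equal (54909 in ANXA2 KO and 54968 in the wild type). With limma, 0 of 35 members were called, as were 0.112% of all genes (18 genes). 0 members were also called with edgeR (0.129% of genes) and with DESeq2 (0.593% of genes). The authors' deposited table gave the same counts as DESeq2. It comes from DESeq2 on the same reads and is not a separate result. At an unadjusted p under 0.05, limma gave 10 members (28.6%), all of them higher in ANXA2 KO, where 4.65% of all genes were higher at that threshold. Leaving out a wild type made this count 6 for library 1 (3.23% of genes), 4 for library 2 (2.38%) and 15 for library 3 (7.15%).

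Among the AP-1 subunits, which pair to form the AP-1 transcription factor, the median difference was 0.513 and 3 of 7 had an unadjusted p under 0.05. Fosb, a FOS-family partner, had values of 41621, 33149.6 and 37199.8 in ANXA2 KO libraries 1, 3 and 4. In wild type libraries 1 to 4 it had 8601, 10299.8, 35277 and 18332. Wild type library 3 reached into the ANXA2 KO range, so the groups overlapped, while the other 3 wild type libraries lay below it. The difference was 1.26 ± 0.43 (SE, adjusted p = 0.523). Fosl2, which encodes FRA2, had values of 7539.9, 6981 and 8111 against 1882, 2135, 6533 and 5955. Its groups did not overlap, although wild type libraries 3 and 4 came close and libraries 1 and 2 were far lower, and the difference was 1.09 ± 0.43 (SE, adjusted p = 0.565). Jund, the most constitutive of the JUN partners, had values of 44598, 30858 and 27469 against 20433, 20212, 33107 and 21052, with wild type library 3 inside the ANXA2 KO range. Its difference was 0.54 ± 0.24 (SE, adjusted p = 0.573). The founding pair, Fos and Jun, showed little difference, at 0.10 (95% interval -0.52 to 0.72) and 0.015 (-0.49 to 0.52). Junb and Fosl1 lay between, at 0.51 and 0.28.

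Maff, a small MAF protein that lacks a transactivation domain, had values of 3205, 2081 and 2883 in ANXA2 KO against 785, 756, 2242 and 1572 in the wild type. The other 3 wild type libraries were below every ANXA2 KO library, and library 3 was inside their range. The difference was 1.15 ± 0.37 (SE, adjusted p = 0.522). Atf3, a stress-induced bZIP factor, was 28687, 15076 and 14374 against 14521, 11147, 21237 and 11541, with ANXA2 KO library 1 alone above all wild type libraries, and a difference of 0.38 ± 0.30 (SE, adjusted p = 0.699).

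Among the EGR factors, zinc finger proteins that carry growth signals to their targets, Egr3 stood out. Its values were 583, 519.8 and 659 in ANXA2 KO and 123, 191, 409.9 and 279 in the wild type. The groups did not overlap, and the mean was 587 ± 69.8 (SD, n = 3) against 251 ± 124 (SD, n = 4). The difference was 1.36 ± 0.35 (SE, adjusted p = 0.462). Egr1, the family's best-known member, differed by 0.43 ± 0.28 and Egr2 by 0.21 ± 0.13 (SE), neither past the test.

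Of the Kruppel-like factors, Klf4 and Klf2 were the ones with an unadjusted p under 0.05. Klf4, a regulator of differentiation and of pluripotency, was 16546, 13730.1 and 18829 in ANXA2 KO and 5361, 5139.5, 14026 and 8546 in the wild type. Klf2, a flow-responsive factor of endothelium also active in leukocytes, was 28041, 19673 and 16869.6 against 10280.2, 9558, 20673 and 9242. For both genes wild type library 3 lay among the ANXA2 KO libraries and the other 3 lay below all of them. The differences were 1.10 ± 0.33 for Klf4 (SE, adjusted p = 0.518) and 0.85 ± 0.30 for Klf2 (SE, adjusted p = 0.534). Klf6 and Klf10, the latter a TGF-beta-induced gene, differed by 0.23 and 0.014.

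The orphan nuclear receptors of the NR4A family act without a known hormone and are set by their own abundance. Nr4a1, also called Nur77, was 70909.9, 39243 and 43256 in ANXA2 KO and 24348, 21239.5, 41003 and 31083 in the wild type, so wild type library 3 was above 1 of the 3 knockout libraries. Nr4a2 was 11995, 4261 and 7296 against 4464, 3110.2, 5224 and 4186, led by knockout library 1, and library 3 of the knockout sat inside the wild type range. The differences were 0.79 ± 0.28 and 0.79 ± 0.32 (SE, adjusted p = 0.534 and 0.565). The third receptor went its own way, with Nr4a3 at 786, 481 and 1268 against 860.3, 797, 1117 and 1010.2, knockout libraries 3 and 4 marking the lowest and the highest of the 7 values. Csrnp1, a nuclear factor first described as AXIN-induced, was 17477, 10541 and 11998 against 6555, 5820.1, 12109.6 and 8321, with wild type library 3 again inside the knockout range, and differed by 0.73 ± 0.27 (SE, adjusted p = 0.552). Myc, a driver of growth, differed by 0.65 ± 0.30, and Srf, which binds the CArG box of many of the other members, by 0.022 ± 0.16 (SE).

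The remaining members encode proteins outside the main factor families, and none of them had an unadjusted p under 0.05 in this comparison. Gadd45b, a stress sensor upstream of p38 and JNK, was 9478, 8601 and 9901 against 8483, 6531, 8238 and 8439: the groups did not overlap, yet the gap between them was narrow and the difference only 0.24 ± 0.13 (SE, adjusted p = 0.603). Zfp36, which encodes tristetraprolin and speeds the decay of AU-rich mRNAs, was 97410.4, 57828 and 58958 against 38998, 39471, 71477 and 38162, with wild type library 3 above 2 of the knockout libraries. The IER proteins had a median difference of 0.246, the MAP kinase phosphatases, which switch off ERK, p38 and JNK, 0.217, and the group of Rhob, Ccn1 and Ccn2 0.263. Ccn2, a matricellular protein induced by stretch and TGF-beta, was 59100.0, 25899.8 and 17738 in the knockout libraries, so that library 1 held 2.71 times the mean of the others. In all, groups that did not overlap were found for 3 members, Egr3, Fosl2 and Gadd45b (8.57%), and for 4.56% of all genes in the same direction.

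**Figure D2:**
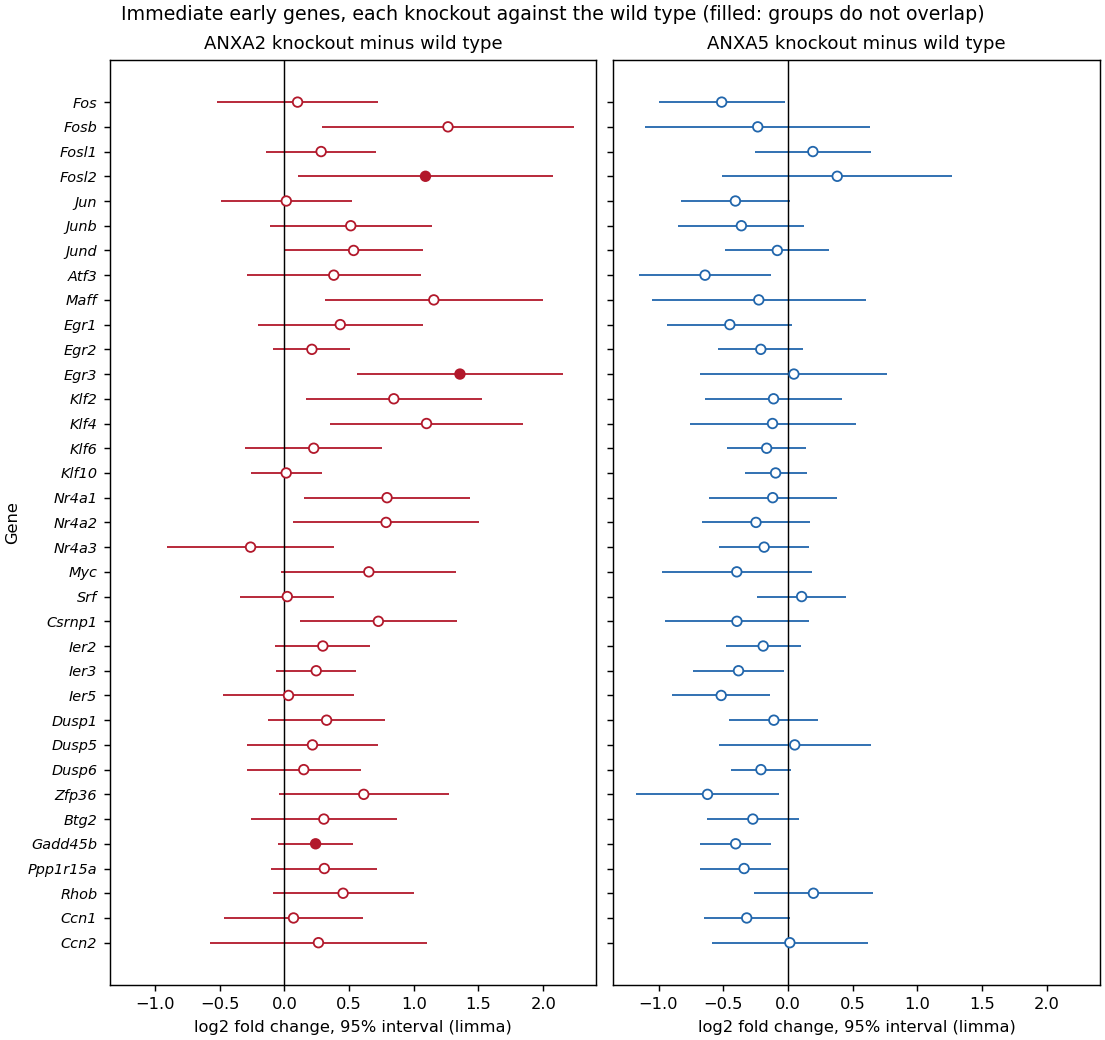
Points are log2 fold changes of the 35 immediate early genes in ANXA2 KO (left, 3 libraries) and ANXA5 KO (right, 4 libraries) against the same 4 wild type libraries, and bars are 95% intervals from limma; filled points mark groups that do not overlap. On the left 34 of 35 points lie above 0 and Egr3 is highest at 1.36; on the right 28 lie below 0 and Atf3 is lowest at -0.64.

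Single libraries carried much of the spread in this comparison. Wild type library 3 was the highest of the 4 wild types for 29 of the 35 members, where 24.6% of all genes had their highest wild type value in it, and the exceptions were Fosl1, Klf6, Klf10, Gadd45b, Ccn1 and Ccn2. It held 2.84 times the mean of the other wild types for Fosb, 2.21 times for Klf4 and 2.16 times for Maff, but 1.03 times for Fosl1. This library was singled out after its values were seen, and because it was the highest wild type for most members, leaving it out favours members over other genes by the way it was chosen. Without it, 20 of 35 members had every ANXA2 KO library above the remaining 3 wild types, as had 8.67% of all genes, and these shares are a description only. Without any other single library the number of members higher without overlap was 3 to 9, where 5.28% to 12.2% of all genes were. It was 9 without ANXA2 KO library 3 (7.36% of genes) and 3 without ANXA2 KO library 1 (9.66% of genes). 15 members had an unadjusted p under 0.05 without wild type library 3, all higher, and 0 passed the adjusted test with limma (0.0814% of genes) or with edgeR (0.0683%). On the knockout side, library 1 was the highest of its group for 26 members, and for 39.3% of all genes. Without it, 25 members lay above 0, 4 were higher at an unadjusted p under 0.05 (4.3% of genes) and the median was 0.20, against 0.0173 over all genes. Without ANXA2 KO library 4 the median was 0.466, against 0.0204 over all genes, 14 members were higher at that threshold (6.05% of genes) and 1 was lower.

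Xist and mitochondrial transcripts moved with the libraries as well. Xist separated wild type libraries 1 and 2 from 3 and 4, and for 14 of the 35 members, Egr3, Fosb, Fosl2, Klf4 and Maff among them, both Xist-rich wild types were below both others, where 24.8% of all genes showed that order. With log2 Xist as a covariate, 5 members passed the threshold, all higher in ANXA2 KO, as did 1.76% of all genes in either direction: Fosl2 at 1.47 (adjusted p = 0.00484, limma), Egr3 at 1.62 (0.0205), Maff at 1.44 (0.0254), Klf4 at 1.34 (0.0269) and Fosb at 1.59 (0.0334). All 5 are among those 14 members. Xist in the ANXA2 KO libraries (203 to 652) lay between the Xist-rich and the other wild types. The covariate thus adjusts to levels that no wild type library had. Whether the 5 calls depend on this was not tested. Mitochondrially encoded transcripts were lower in ANXA2 KO, with 11 of 12 in the table and 0 of 10 tested passing. 9 were lower at an unadjusted p under 0.05, where 4.04% of all genes were. Their median was -0.708, and their sums were 18099 to 28386 against 31311 to 52476. The part of the mitochondrial transcripts in the result was not tested. Neutrophil and macrophage marker sums overlapped between ANXA2 KO and the wild type.

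In ANXA5 KO, most immediate early genes lay somewhat below the same wild type libraries, and again none passed the test. 28 of 35 were below 0, and the median was -0.21, against 0.0113 over all 16224 genes, of which 52% lay above 0. The lowest were Atf3, Zfp36, Ier5, Fos and Egr1, and the 7 above 0 were Fosl1, Fosl2, Egr3, Srf, Dusp5, Rhob and Ccn2. With limma 0 of 35 were called, against 0.0308% of all genes (5 genes). edgeR (0.0308% of genes) and DESeq2 (1.76% of genes) likewise called 0 members. The authors' deposited table, from DESeq2 on the same reads, gave the same counts as DESeq2. At an unadjusted p under 0.05, 6 members were lower (17.1%), where 5.45% of all genes were, and none was higher, where 6.48% were. The count of lower members was 15 without ANXA5 KO library 2 (4.12% of all genes), 2 without ANXA5 KO library 3 (5.16%) and 2 without library 4 (3.88%). Leaving out a wild type gave 3 for library 3 (4.54%) and 10 for library 4 (8.13%).

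Those 6 were Fos and Atf3, the IER genes Ier3 and Ier5, the mRNA decay factor gene Zfp36 and the stress sensor gene Gadd45b. Fos, the prototype of the class, was 116580.0, 118690.0, 82731 and 102952 in ANXA5 KO libraries 1 to 4. Its wild type values, for libraries 1 to 4, were 155609, 143428, 197590.0 and 110441. Atf3 was 10583, 13671, 8068 and 8348 against 15881, 12201, 23455 and 12655. For both genes 1 or more wild type libraries lay inside the knockout range, and wild type library 3 lay well above it. The differences were -0.51 ± 0.22 for Fos and -0.64 ± 0.23 for Atf3 (SE, adjusted p = 0.403 and 0.342).

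Ier3, a survival factor that is itself an ERK substrate, was 8401, 9796, 5787 and 7538 against 10207, 8613, 11658 and 10097. Ier5, a partner of heat shock factor 1, was 8777, 10247, 7466 and 6208 against 11873, 9816, 14359.7 and 10408. Only ANXA5 KO library 2 reached the wild type range in both genes. The differences were -0.38 ± 0.16 and -0.52 ± 0.17 (SE, adjusted p = 0.391 and 0.32). Zfp36 was 32607, 46125, 24342 and 29686 against 42650.0, 43203, 78943 and 41846, and Gadd45b was 7161, 7463, 5759.8 and 5919 against 9278, 7148, 9098 and 9254. For Zfp36 library 2 of the knockout was above 3 of the wild types, and for Gadd45b libraries 1 and 2 were above wild type library 2 alone. They differed by -0.62 ± 0.25 and -0.40 ± 0.12 (SE, adjusted p = 0.377 and 0.299).

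The genes with the largest differences in ANXA2 KO, compared with the same wild type libraries, had these values in ANXA5 KO. Egr3 was 230.2, 348, 234 and 236 against 134, 209, 453 and 306, a difference of 0.046 (95% interval -0.68 to 0.77), all 4 knockout values lying inside the wild type range. Klf4 differed by -0.12 (-0.76 to 0.52), Fosb by -0.23 (-1.10 to 0.63), and Maff by -0.23 (-1.05 to 0.60). Fosl2 was 5381, 6196, 3567 and 5482 against 2058, 2337, 7215 and 6529.9, and at 0.38 (-0.51 to 1.27) it was the highest of all members in ANXA5 KO. All 4 of its ANXA5 KO values lay between the lower and the higher pair of wild types. With log2 Xist as a covariate, Fosl2 was 0.60 (adjusted p = 0.191, limma) and the one member higher at an unadjusted p under 0.05, where 10.1% of all genes were. The intervals of Fosb and Maff include -1, and that of Fosl2 includes 1. By family, the medians were -0.233 for AP-1, -0.433 for Atf3 and Maff, -0.21 for EGR, -0.115 for the Kruppel-like factors, -0.184 for NR4A, -0.394 for Myc, Srf and Csrnp1, -0.382 for IER, -0.109 for the phosphatases and -0.371 for the decay and stress group. Rhob, Ccn1 and Ccn2 had a median of 0.0149.

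No member had groups that did not overlap, where 3.36% of all genes were lower and 3.01% higher without overlap. Without ANXA5 KO library 2, 10 members were lower without overlap, as were 4.82% of all genes. Without any other single library 0 to 3 members were, beside 4.3% to 8.51% of all genes. All 4 ANXA5 KO libraries were below wild type library 3 for 31 of 35 members, as they were for 25.3% of all genes. Without that library, the median was -0.116, 13 members lay above 0, and 3 were lower (4.54% of all genes) and 1, Rhob, higher (6.72%) at an unadjusted p under 0.05. Fosb, Jund, Maff, Klf2, Klf4 and Nr4a1 then changed sign, to values of 0.061 to 0.18. Among the knockout libraries, library 2 was the highest for 28 members (22% of all genes) and library 3 the lowest for 26 (29.7% of all genes). Library 2 was also the one ANXA5 KO library with next to no Xist reads.

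All marker lists of other cells had medians above 0 in ANXA5 KO. Of all genes, 6.48% were higher and 5.45% lower at an unadjusted p under 0.05. The osteoblast list had a median of 0.673, with 0 of 6 passing, 6 of 6 higher at an unadjusted p under 0.05, and sums of 4772 to 6501 against 2906 to 4821. The endothelial list had a median of 1.23, with 0 of 7 passing, 6 of 7 higher at an unadjusted p under 0.05, and sums of 4524 to 6924 against 3813 to 4867. Its most abundant gene, the angiopoietin receptor gene Tek, went the other way, with means of 1734 and 2481 and a difference of -0.48 ± 0.17 (SE, limma, adjusted p = 0.342). The macrophage and monocyte list had a median of 0.373, with 0 of 10 passing, 7 higher at that threshold, and sums of 117973 to 148689 against 84672 to 128660. The neutrophil list had a median of 0.372, with 3 of 8 higher at that threshold, and sums of 445673 to 618839 against 316849 to 566234. The erythroid and megakaryocytic list had a median of 0.601 (sums of 38183 to 71046 against 16051 to 56417), the adipocyte list 0.502 (6992 to 10412 against 6069 to 6948) and the B and plasma cell list 0.0684 (26291 to 35494 against 22089 to 29648). In these lists 2 of 8, 2 of 5 and 2 of 7 genes tested were higher at that threshold, and 0 were lower. None of these markers was at 0 in any library, and their part in the lower values of the immediate early genes was not tested.

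Set directly against each other, the knockouts had nearly all immediate early genes higher in ANXA2 KO than in ANXA5 KO, though no single gene passed the main test. The 7 libraries were placed on 1 scaling with the wild types and tested with edgeR, in a fit in which all 3 groups share the estimate of spread. 34 of 35 differences lay above 0, where 49.3% of all genes did, Srf alone lying below at -0.10, and the median difference was 0.618 on the log2 scale, against -0.00403 over all 16722 genes. 0 of 35 were called at an adjusted p under 0.05, where 0.263% of all genes were (44 genes), the smallest adjusted p among members being that of Gadd45b, 0.0889. At an unadjusted p under 0.05, 24 members were higher (68.6%) and none lower, where 7.36% of all genes were higher. Leaving out ANXA2 KO library 1 made this count 17 (3.59% of genes) and the median 0.481. Without ANXA5 KO library 3 they were 19 (5.61%) and 0.532, and without ANXA2 KO library 4 they were 27 (10.8%) and 0.648. With all libraries, 9 members were higher in ANXA2 KO by at least 1, as were 1.28% of all genes.

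Several marker lists moved the other way between the knockouts, on the same scaling, with 0 of their genes passing. The erythroid and megakaryocytic list had a median of -1.03, 6 of 8 genes lower in ANXA2 KO at an unadjusted p under 0.05, and sums of 14460.0 to 30672 in ANXA2 KO against 37669 to 70093 in ANXA5 KO. The endothelial list had a median of -0.904, 5 of 7 lower and sums of 3521 to 4933 against 4463 to 6716, and the osteoblast list -0.558, 3 of 6 lower and sums of 3360.0 to 5482 against 4629 to 6413. The mitochondrially encoded transcripts had a median of -0.43, 5 of 10 lower and sums of 19358 to 30509 against 30103 to 41672. The erythroid sums did not overlap, while the other 3 did, and 6.55% of all genes were lower at that threshold. The lists of macrophages, neutrophils, adipocytes and B cells had medians of -0.282, -0.113, -0.409 and -0.142, and that of stromal cells 0.144. None of these markers was at 0 in any knockout library, and their part in the differences of the immediate early genes was not tested.

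The call depended on the tool and on the samples in the fit. DESeq2 on the same reads called 17 members, all higher in ANXA2 KO, and 2.29% of all genes (378 genes). They were Fosb, Junb, Atf3, Maff, Egr1, Egr3, Klf2, Klf4, Nr4a1, Nr4a2, Myc, Csrnp1, Ier2, Ier3, Zfp36, Gadd45b and Ppp1r15a. edgeR with the knockouts only called 3 members, Fosb (adjusted p = 0.0208), Egr3 (0.0221) and Klf4 (0.0221), and 0.246% of all genes. The cause of these differences between fits was not tested.

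The groups of libraries did not overlap for 20 members, all higher in ANXA2 KO (57.1%), where 6.05% of all genes were higher without overlap. These were Fos, Fosb, Fosl2, Junb and Jund of AP-1, Atf3 and Maff, Egr1 and Egr3, Klf2 and Klf4, Nr4a1, Myc and Csrnp1, Ier2 and Ier3, Dusp6, Zfp36, Gadd45b and Ppp1r15a. Scaling by total reads gave 17, where 2.71% of all genes were higher and 12.8% lower without overlap, against 6.05% and 6.62% on the scaling used. Leaving out 1 library at a time gave 20 to 24, where 7.52% to 16.2% of all genes were higher, the 16.2% going with the 24 members found without ANXA2 KO library 4. Without ANXA5 KO library 3, Srf was lower in ANXA2 KO without overlap.

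**Figure D3:**
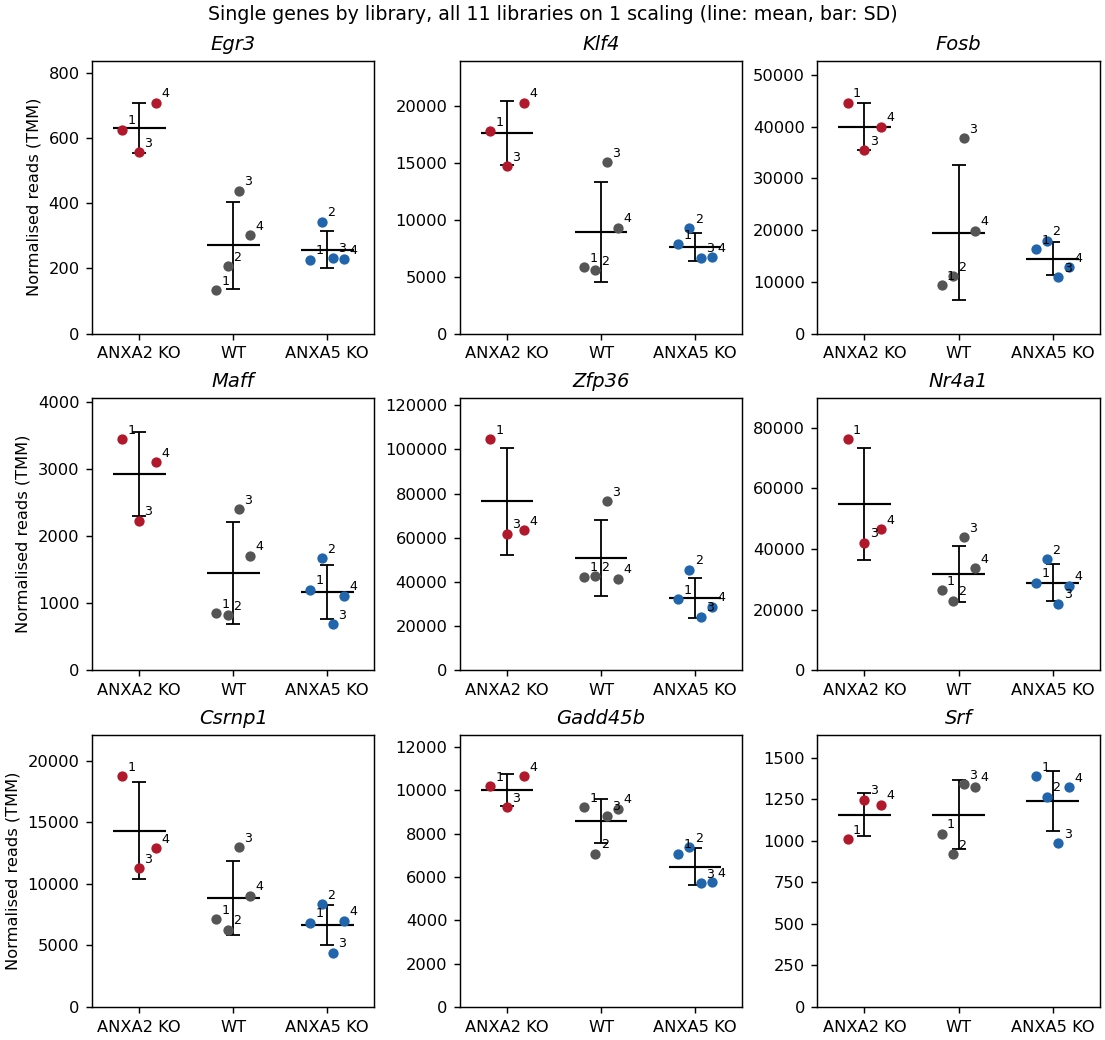
Read counts on 1 scaling (TMM) of 9 genes in the 11 libraries, numbered as their columns are; lines are group means and bars SD, and each vertical axis starts at 0. For the first 8 genes the 3 ANXA2 KO points lie above the 4 ANXA5 KO points (Egr3 at 556 or more against 344 or less), while for Srf they overlap.

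On that common scaling, Egr3 was 626, 556 and 709 in ANXA2 KO and 227, 344, 232 and 229 in ANXA5 KO, a log2 difference of 1.29 ± 0.30 (SE, edgeR, adjusted p = 0.133). Klf4 was 17760.0, 14688 and 20252 against 7841, 9232, 6652 and 6702, a difference of 1.21 ± 0.29 (adjusted p = 0.142). In both genes the lowest ANXA2 KO library lay above the highest ANXA5 KO library. Fosb was 44674, 35462 and 40011 against 16325, 17974, 10864 and 12794, the largest difference among the members, 1.46 ± 0.39 (adjusted p = 0.167). Maff was 3440.3, 2226 and 3101 against 1201, 1666, 684 and 1113, 1.32 ± 0.37 (adjusted p = 0.177). Fosb and Maff were likewise apart, and ANXA5 KO library 2 was the highest of its group for each of these 4 genes.

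The regulators of mRNA decay and stress were also higher in ANXA2 KO, none past the edgeR test. Zfp36 was 104554, 61861 and 63413 against 32168, 45506, 24171 and 28794, 1.23 ± 0.28 (adjusted p = 0.12). Gadd45b was 10173, 9201 and 10649.6 against 7064, 7363, 5719 and 5741, 0.63 ± 0.13 (adjusted p = 0.0889). Gadd45b had a smaller difference than Zfp36 and a smaller SE, and neither gene's groups overlapped. Ppp1r15a, which encodes GADD34 and restores translation after stress, differed by 0.64 ± 0.17, and Btg2, an antiproliferative factor that promotes deadenylation, by 0.62 ± 0.23 (SE). The phosphatases showed less: Dusp1 0.43 ± 0.17, Dusp6 0.39 ± 0.16 and Dusp5 0.10 ± 0.25 (SE), and only Dusp6 had groups that did not overlap.

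Of the nuclear factors, Csrnp1 was 18758, 11276 and 12904 against 6848, 8327, 4395 and 6992, 1.11 ± 0.27 (SE, adjusted p = 0.141). Nr4a1 was 76110.3, 41980.2 and 46525 against 28839.7, 36652, 21970.5 and 27845, 0.93 ± 0.26 (adjusted p = 0.179). Nr4a1 was carried above all by ANXA2 KO library 1, while libraries 3 and 4 lay nearer to ANXA5 KO library 2. Myc, Atf3 and Nr4a2 had differences of 1.05 ± 0.31, 1.05 ± 0.29 and 1.12 ± 0.29 (SE), and for all 3 genes library 1 of ANXA2 KO was the highest. Egr1 differed by 0.88 ± 0.23 and Egr2 by 0.40 ± 0.16, Klf2 by 0.97 ± 0.27, and Junb, Jund and Fos by 0.87 ± 0.23, 0.63 ± 0.21 and 0.60 ± 0.21 (SE). Fosl2, for which the wild types were widely spread, differed by 0.67 ± 0.38 (95% interval -0.14 to 1.49), and its groups did not overlap.

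A smaller set showed little or no difference between the knockouts. Srf was 1009.9, 1247 and 1217 against 1390.1, 1265, 985 and 1322, a difference of -0.10 (95% interval -0.44 to 0.24). Nr4a3 differed by 0.0011 (-0.57 to 0.57), Fosl1 by 0.07 (-0.43 to 0.57), Klf10 by 0.10 (-0.16 to 0.35) and Dusp5 by 0.10 (-0.44 to 0.65). A log2 difference of 1 lies outside all 5 intervals, and the groups overlapped for each gene. Rhob, an actin-linked GTPase, Ccn1 and Ccn2, genes also read by YAP, had differences of 0.25, 0.42 and 0.34, none with an unadjusted p under 0.05. Of the promoters shown, those of Srf and Dusp5 hold CArG boxes, as does that of Zfp36, whose difference was 1.23. Those of Nr4a1, Klf4 and Fosb hold the CRE half-site and the EGR site, as does that of Srf, and that of Dusp5 holds the half-site. The promoters shown are examples. Among those not shown, that of Nr4a3 holds the half-site but no CArG box or EGR site. The same is true of Atf3 and Csrnp1, while Maff and Nr4a2 hold the half-site and the EGR site.

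**Figure D4:**
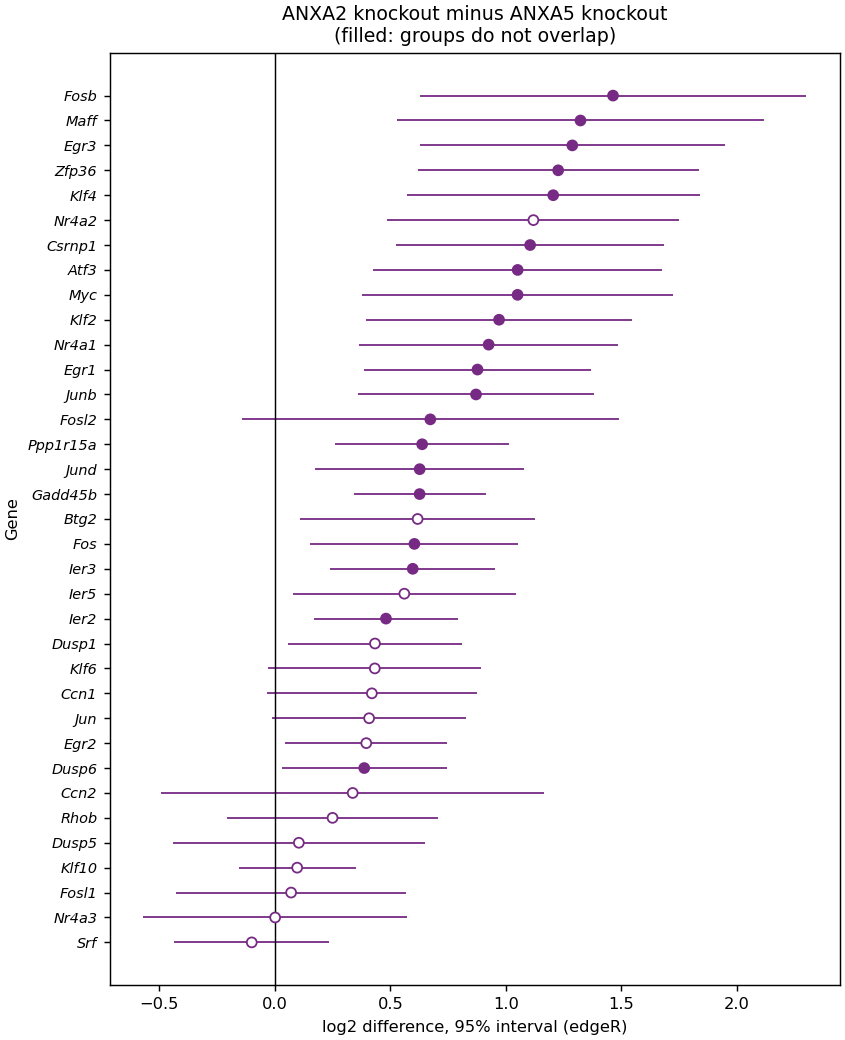
Points are log2 differences of the 35 immediate early genes between ANXA2 KO (3 libraries) and ANXA5 KO (4 libraries), ordered by size, and bars are 95% intervals from edgeR; filled points mark the 20 genes whose groups do not overlap. Fosb is highest at 1.46 and Srf, at -0.10, is the one point below 0.

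Other genes of the early response and of its pathways were followed through lists that were also chosen with earlier results of these data known. Of 30 early-response genes outside the members, 29 were tested in each comparison. Against the wild type in ANXA2 KO, 0 passed, 13 were higher and 0 lower at an unadjusted p under 0.05, 26 lay above 0, and the median was 0.443. Of all genes, 4.65% were higher and 4.04% lower at that threshold. Zfp36l1, a paralogue of Zfp36, led at 0.95 ± 0.20 (SE, limma, adjusted p = 0.3), followed by the chemokine Ccl2 at 0.75 ± 0.23 and Cebpb at 0.61 ± 0.20. In ANXA5 KO 0 passed, 1 was higher and 6 lower (6.48% and 5.45% of all genes), and the median was -0.0229; the prostaglandin synthase gene Ptgs2 led at -0.93 ± 0.25 (SE, adjusted p = 0.266). Between the knockouts 0 passed, 14 were higher in ANXA2 KO and 0 lower (7.36% and 6.55% of all genes), and the median was 0.447.

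NF-kB is another rapid pathway, whose targets include its own inhibitors and many cytokines. Il6, Cxcl1 and Ccl2 are in both lists, so 3 of its 16 genes were counted above as well. In ANXA2 KO all 16 of its listed genes lay above the wild type, 0 passing and 11 with an unadjusted p under 0.05 (4.65% of all genes were higher), with a median of 0.503. In ANXA5 KO 4 lay above 0, 0 passed, 3 were lower at that threshold (5.45% of all genes were), and the median was -0.183. Between the knockouts the median was 0.629 and 1 of 16 passed, where 0.263% of all genes did. This was Icam1, an adhesion molecule, at 16180 ± 2487 (SD, n = 3) in ANXA2 KO and 7318 ± 1217 (SD, n = 4) in ANXA5 KO, a difference of 1.14 ± 0.17 (SE, edgeR, adjusted p = 0.0156). Its adjusted p was 0.08 without ANXA2 KO library 1, 0.066 without ANXA5 KO library 3 and 0.0802 without ANXA5 KO library 4, and between 0.0187 and 0.0469 without any other single library.

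Lists of genes that act above or beside the immediate early genes had medians nearer to 0 in ANXA2 KO. In ANXA2 KO the 26 upstream kinases and factors had a median of 0.0886, the 15 actin and contractile targets of SRF 0.077, the 13 ERK feedback genes tested -0.0171, the 10 other dual-specificity phosphatases 0.0405 and the 12 heat shock genes -0.0509. In ANXA5 KO those medians were 0.0354, 0.306, -0.135, 0.0922 and 0.113. 11 YAP and TEAD targets had medians of 0.177 and -0.0563. None of these genes passed the test in either comparison or between the knockouts, and at an unadjusted p under 0.05 each list had 0 to 4 genes in either direction. The 4 were of the 13 ERK feedback genes, lower in ANXA5 KO, where 5.45% of all genes were. In ANXA5 KO, 3 of the 15 actin and contractile targets were higher (6.48% of all genes). Between the knockouts, 3 of the 10 other phosphatases were higher in ANXA2 KO (7.36% of all genes). In a given direction, 4.04% to 7.36% of all genes reached that threshold. Spry2, which restrains ERK signalling, was lower in both knockouts than in their shared wild type, at -0.77 ± 0.21 in ANXA2 KO and -0.73 ± 0.23 in ANXA5 KO (SE, adjusted p = 0.476 and 0.317), and its groups did not overlap in either.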

How the data were processed

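The data are RNA-seq libraries of 11 samples, 2 deposited tables with 1 row per gene, and the same 4 wild type libraries in both. Per the submitters' processing notes, Trim Galore, STAR, HTSeq and DESeq2 were used with build GRCm39; the sources used here do not give versions, annotation or use of strand, so reads of overlapping or antisense transcripts cannot be told apart from those of a member. The deposited library columns hold a normalised signal, the read count of the gene divided by the size factor of the library. All values of every library came out as whole reads, within 0.001, once multiplied by that factor. Log2 fold changes, p-values and a test statistic (a score) come from the authors' DESeq2 run per the file headers. The deposited statistic has the sign opposite to the deposited fold change for 100% of genes in both tables and was not used.

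Each knockout was compared with the wild type on log2(value + 1) with limma-trend (limma 3.58.1, R 4.3.3), and a gene was kept if the number of libraries with 10 or more reached the size of the smaller group. The knockouts were compared with each other on recovered reads with edgeR 4.0.16 (quasi-likelihood, TMM scaling, all 3 groups in the fit), since the tables were scaled separately. P-values were adjusted by Benjamini-Hochberg over all genes tested, and the threshold was 0.05. Alternatives were edgeR, DESeq2 1.42.0, other pseudocounts, filters and scalings, a log2 Xist covariate, a replicate block and leaving out each library. The fits were tested on simulated reads with a spread (dispersion) of 0.04 for every gene, where 76% to 87% of 2-fold changes were found. The simulation gave all genes that spread and no shift shared by the members of a library. It therefore does not show how the fits perform on these members.

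The columns of ANXA2 KO are numbered 1, 3 and 4 and its samples 1 to 3, so these columns were assigned to the group and not to single samples. The members, the other gene lists and the markers were chosen with earlier results of these data known. All 35 members are named; values in every library are given for those that, against the wild type, had groups without overlap, an unadjusted p under 0.05 or a log2 fold change of at least 1, and from the other lists up to 3 genes with the smallest p in a comparison. Promoter sequences are from RefSeq, assembly GRCm38.p6.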

Additional observations from a re-analysis of the deposited data

Results flagged for a closer look

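In 70 groups of 4 libraries, 1 for each member in the wild type and in ANXA5 KO, the highest or lowest library was set against the other 3 by Dixon's ratio of its gap to the group's range at the 95% limit; chance alone marks about 1 in 20 such groups. In the wild type, library 3 was far above the others for Jund (33107 against 20212 to 21052, ratio 0.935), Klf2 (20673 against 9242 to 10280.2, ratio 0.909) and Zfp36 (71477 against 38162 to 39471, ratio 0.961). Wild type library 2 was low for Gadd45b (6531 against 8238 to 8483, ratio 0.874), and wild type library 4 for Ccn2 (18208 against 27125 to 28877, ratio 0.836). In ANXA5 KO, library 2 was high for Egr3 (348 against 230.2 to 236, ratio 0.952).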

How the results depend on the processing

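With 3 or 4 libraries a group, the spread between libraries limits what can be called, and single libraries move the medians of the members. The count of members past the adjusted threshold against the wild type stayed at 0 under other pseudocounts, filters, scalings and tools and without any 1 library (lowest and highest 0), except in ANXA2 KO with the Xist covariate, where it was 5. Between the knockouts it was 0 with edgeR and without any 1 library, 17 with DESeq2 and 3 with the knockouts only; the cause was not tested. The median of the members ranged from 0.2004 to 0.4664 in ANXA2 KO (0.309 with all), lowest without ANXA2 KO library 1 and highest without ANXA2 KO library 4, and from -0.3237 to -0.1158 in ANXA5 KO (-0.21 with all), lowest without ANXA5 KO library 2 and highest without wild type library 3, with -0.123 without ANXA5 KO library 3. Without 1 library, members higher without overlap in ANXA2 KO numbered 3 to 20 (3 with all), where 5.28% to 12.2% of all genes were. They were 3 without ANXA2 KO library 1 (9.66% of genes). Without ANXA2 KO library 4, 6 were higher and 1 lower (12.2% and 9.99% of genes). In ANXA5 KO, 0 to 10 members were lower without overlap (0 with all), where 4.3% to 8.51% of all genes were. These settings were chosen after seeing the data.

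The labels do not say whether a replicate number shared by wild type and ANXA5 KO marks a shared animal or day. Same-numbered libraries had correlations of deviations of 0.049, -0.075, -0.25 and 0.067, and differently numbered ones had -0.14 to 0.25. Such correlations cannot settle whether the samples were paired. With a replicate block, 0 members and 8 genes of all were called (5 without it) and 3 members had an unadjusted p under 0.05 (6 without it). No paired analysis was possible for ANXA2 KO because its columns do not carry the numbers of its samples.

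Signs turned for members near 0. In ANXA2 KO against the wild type, Jun was -0.017 with edgeR and -0.0015 with DESeq2, Klf10 -0.0020 and Srf -0.0029 with edgeR, and Klf10 -0.0068 with the Xist covariate. Without 1 library, the ranges were Fos -0.040 to 0.24, Jun -0.077 to 0.16, Klf6 -0.066 to 0.41, Klf10 -0.062 to 0.078, Nr4a3 -0.61 to 0.089, Srf -0.082 to 0.12, Ier5 -0.21 to 0.26, Dusp6 -0.089 to 0.27, Btg2 -0.010 to 0.47, Ccn1 -0.15 to 0.34 and Ccn2 -0.22 to 0.64. In ANXA5 KO, Egr3 was -0.076 with edgeR and -0.071 with DESeq2, and with the Xist covariate Klf4 was 0.026 and Ccn2 -0.037. With edgeR and no wild type library 3, chosen after seeing the data, Fosb was 0.11, Jund 0.097, Maff 0.053, Klf2 0.16, Klf4 0.15 and Nr4a1 0.059. Without 1 library, the ranges were Fosb -0.52 to 0.17, Jund -0.16 to 0.093, Maff -0.45 to 0.077, Egr3 -0.25 to 0.33, Klf2 -0.22 to 0.17, Klf4 -0.31 to 0.18, Nr4a1 -0.26 to 0.061, Dusp5 -0.12 to 0.25 and Ccn2 -0.23 to 0.22. Between the knockouts, Nr4a3 was -0.00064 with the knockouts only, and the ranges without 1 library were Fosl1 -0.20 to 0.24, Nr4a3 -0.42 to 0.29, Dusp5 -0.059 to 0.29 and Ccn2 -0.31 to 0.65.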
